A study of Rattus with 6 samples.

Results

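The genes described here encode proteins of the mitochondrial ribosome. They were chosen as the protein-coding rows of the deposited count table whose symbol begins with Mrpl or Mrps followed by a digit. The rule found 74 of 20742 listed genes, 44 of the large subunit (Mrpl) and 30 of the small subunit (Mrps). Their mRNAs were measured by poly(A) RNA sequencing in H9C2, an established myoblast line derived from the heart of a rat embryo. There were 3 libraries from cells with a control plasmid and 3 from cells with a plasmid for RBM25 overexpression, and both groups are of this 1 line and carry a plasmid. RBM25 is an RNA-binding protein that acts with the U1 snRNP in splice site choice. The sources used here do not give how long the plasmids were carried, or whether libraries came from separate cultures, so p-values measure only the spread between libraries, which may be technical.

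Mitochondria have their own ribosome, which translates the few mRNAs of the mitochondrial genome, all of them for subunits of the respiratory chain and ATP synthase. Its RNA comes from the mitochondrial genome, but all of its proteins are encoded in the nucleus, made in the cytosol and imported. The small subunit binds and decodes the mRNA, and the large subunit joins amino acids and holds the exit for the new chain, which goes straight into the inner membrane. Many of these proteins have counterparts in bacteria, and others are found only in mitochondria. Heart muscle depends strongly on the respiratory chain.

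Libraries held 25543849 to 33130256 counted reads. Rbm25 was at 49.2, 44.5 and 45.7 CPM (counts scaled to library size) in control replicates 1, 2 and 3, and at 56.3, 55.9 and 60.1 CPM in RBM25 replicates 1, 2 and 3. The groups did not overlap, and the log2 fold change of 0.30 ± 0.047 (SE) had an adjusted p of 0.0011 by edgeR. The call was lost without control replicate 2 (0.28; adjusted p = 0.0842 by edgeR) and in limma-trend on FPKM (adjusted p = 0.242 to 0.456). Over all genes, 52 of 12882 tested were called changed, 46 higher and 6 lower; the count was 352 without RBM25 replicate 3, 21 without control replicate 3 and 5 without control replicate 2. Of 9 markers fixed for myoblast-like H9C2 cells, 7 were at 1 CPM or more in all 6 libraries, Myod1 and Myog among them. The cardiac muscle genes of the set were divided. Tnnt2, at 94.1 to 137 CPM, and Casq2, at 324 to 355 CPM, were above that level. Actc1, at 0.55 to 1.50 CPM, and Myh7, at 0 to 0.0632 CPM, were not in all libraries. The summed level of 3 endothelial markers (Pecam1, Cdh5 and Kdr) was 0 to 0.129 CPM in controls and 0.0606 to 0.0948 CPM with RBM25. For the epithelial markers it was 24.97 to 28.6 and 25.7 to 29.8 CPM, nearly all of it Krt8, and for the leukocyte markers 6.05 to 6.66 and 5.72 to 7.01 CPM, most of it Cd3e. Fibroblast markers summed to 13790 to 15199 CPM in controls and 13896 to 14604 CPM with RBM25, mostly Col1a1, with Pdgfra at 0 to 0.0606 CPM. The sum of the H9C2 set was lower, at 11632 to 12532 CPM. Nearly all of it was Acta2 (7050 to 7891 CPM) and Vim (4064 to 4129 CPM).

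In control cells and with RBM25, the median level of mitochondrial ribosomal protein mRNAs was above that of all tested genes and below that of cytosolic ribosomal proteins. Levels are compared between genes in FPKM, fragments scaled to gene length and library size, as deposited by the authors. The median of the 6-library means was 34.9 FPKM for the 44 large subunit genes (quartiles 23.4 and 41.5) and 36.1 FPKM for the 30 small subunit genes (quartiles 21.9 and 48.4). Of the 74, 60 lay between 10 and 60 FPKM. The median was 136 FPKM for 86 nuclear-encoded subunits of the respiratory chain and ATP synthase, below called the respiratory chain list. It was 1176 FPKM for 100 cytosolic ribosomal proteins. Of the 86 and 100 genes, 79 and 90 were tested. Over all tested genes the median was 5.43 FPKM and the upper quartile 18.8 FPKM, below the lower quartile of either subunit. In CPM, which is not scaled to length, the medians lay closer. They were 43.2 for the 74 members, 131 for the respiratory chain list, 805 for the cytosolic list and 22.3 over all tested genes. Median lengths implied by counts and FPKM were 1242 bases for the members and 3600 bases over all tested genes. All 74 together took 0.348 ± 0.0017% of the reads in controls and 0.349 ± 0.0055% with RBM25 (SD, n = 3). In RNA from whole cultures, fewer cells and less RNA per cell cannot be told apart.

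The medians of the subunits differed little from each other in any library. For the large subunit the median was 34.4, 34.95 and 34.7 FPKM in control replicates 1, 2 and 3, and 35.1, 33.5 and 35.8 FPKM in RBM25 replicates 1, 2 and 3. For the small subunit it was 34.5, 36.5 and 36.1 FPKM in the controls, and 37.4, 37.5 and 35.1 FPKM with RBM25. The ratio of large to small was 0.973 ± 0.0213 in controls and 0.950 ± 0.0629 with RBM25 (SD, n = 3), and the RBM25 libraries, from 0.894 to 1.02, spanned all controls. By the mean in place of the median the order of the subunits was the opposite, with 40.7 FPKM for the large and 37.02 FPKM for the small subunit in controls.

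**Figure D1:**
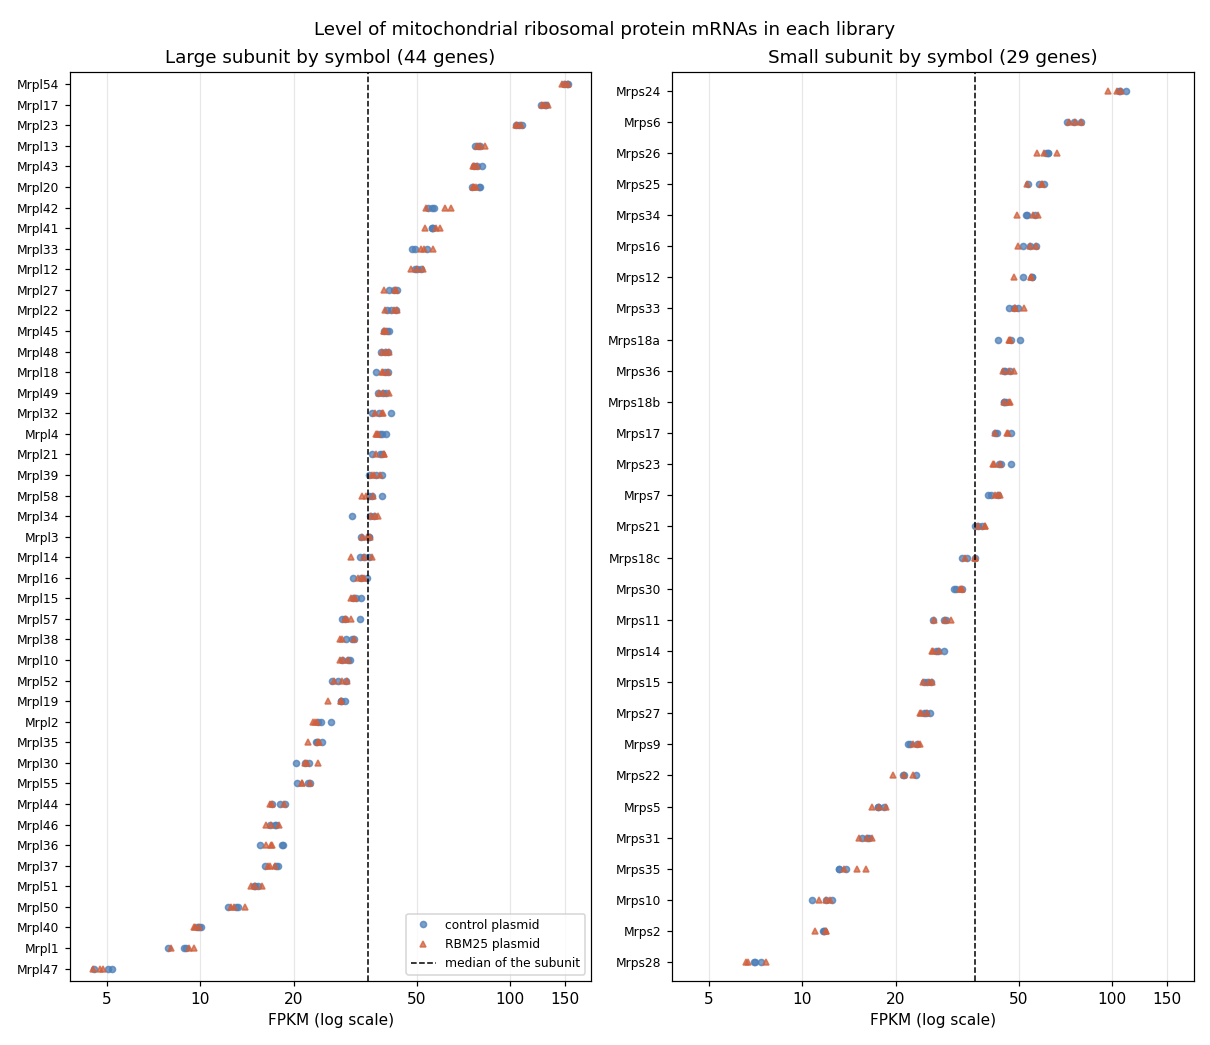
FPKM (log axis) of each tested member in each of the 6 libraries, with control plasmid libraries as circles and RBM25 plasmid libraries as triangles; the dashed line is the median of the subunit over all listed members. Genes run from 4.81 FPKM (Mrpl47) to 151 FPKM (Mrpl54), and the symbols of 1 gene lie close together compared with the distance between genes.

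Within each subunit the genes covered a wide range, although the ribosome holds their proteins in fixed proportions. In the large subunit the highest member was Mrpl54, a mitochondria-specific protein, at 150, 153 and 153 FPKM in control replicates 1 to 3 and 153, 150 and 146 FPKM in RBM25 replicates 1 to 3. The next were Mrpl17, with a bacterial counterpart, at 129 FPKM, and Mrpl23, which lies at the exit of the peptide tunnel, at 106 FPKM (means of 6 libraries). Every library of these 3 genes was above every library of the fourth, Mrpl13, at 79.3 FPKM. At the other end were Mrpl40 at 9.78 FPKM, Mrpl1 of the L1 stalk at 8.76 FPKM, and Mrpl47, also near the tunnel exit, at 5.18, 5.03 and 4.55 FPKM in controls and 4.52, 4.73 and 4.85 FPKM with RBM25. The highest large subunit gene was therefore 31.4-fold above the lowest.

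In the small subunit the order began with Mrps24, a protein at the mRNA entry side, at 105, 111 and 106 FPKM in control replicates 1 to 3 and 103, 107 and 96.7 FPKM in RBM25 replicates 1 to 3. Mrps6, with a bacterial counterpart, followed at 75.6 FPKM and the mitochondria-specific Mrps26 at 61.5 FPKM. The lowest tested members were Mrps2 at 11.6 FPKM and Mrps28 at 7.04 FPKM, 14.9-fold below Mrps24. Mrps28 also had the fewest reads of all tested members, 136 to 194 per library. Mrps21l, an S21-like copy on chromosome 18, had 1 read in the 6 libraries together and was the only member that did not pass the filter on low counts; it is listed at 0 FPKM in 5 libraries. Its counterpart Mrps21 was at 37.6 FPKM, and reads of such a copy could be assigned to either gene.

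Low FPKM went with the gene length that FPKM divides by. Counts and FPKM together imply a length of 3182 bases for Mrpl47, 2599 for Mrpl40 and 2874 for Mrps2, against 661 for Mrpl54, 584 for Mrpl23 and 706 for Mrps6. There were exceptions, since Mrps28, the lowest tested small subunit gene, has an implied length of 766 bases and the abundant Mrpl17 one of 1276. Across the 73 tested members, Spearman's rho between FPKM and this length was -0.62, and between CPM and length it was 0.11. The length was computed from the same counts and FPKM, and FPKM is a count divided by length. A negative rho with FPKM is thus built in where CPM hardly varies with length. Genes are also not independent replicates. The sources used here do not say how length was defined, and its part in the order was not tested. By CPM the lowest members were Mrps28 (5.40), Mrpl1 (14.7) and Mrpl47 (15.3), and the highest was Mrpl17 (165).

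Levels by structural class and role overlapped. In the large subunit, 26 members with a bacterial counterpart had a median of 34.9 FPKM and 18 mitochondria-specific members 32.8 FPKM. In the small subunit by symbol, 16 members with a counterpart had a median of 31.5 FPKM and 12 mitochondria-specific members 44.4 FPKM. Their quartiles, 21.7 and 46.4 FPKM against 24.01 and 50.2 FPKM, largely overlapped. These 12 include Mrps18a and Mrps30, whose proteins lie in the large subunit. Mrps18a and Mrps18b were classed as mitochondria-specific although they are related to bacterial S18. The stalk that recruits translation factors was represented among the members by Mrpl12 at 50.3 FPKM and Mrpl10 at 29.4 FPKM. The gene mrpl11 of the stalk base, listed in lower case and so outside the rule, was at 58.7 FPKM. Around the exit, Mrpl45, which ties the ribosome to the inner membrane, was at 39.7 FPKM, Mrpl39 at 36.8 FPKM and Mrpl44 at 17.7 FPKM. There mrpl24, likewise outside the rule, was at 14.2 FPKM. Mrps12, of the decoding site, was at 53.2 FPKM.

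Symbols do not always name the subunit in which a protein sits. Mammalian mitochondria have 3 proteins related to bacterial S18: in structures of the ribosome the Mrps18b and Mrps18c proteins lie in the small subunit, and the Mrps18a protein, like that of Mrps30, in the large one. Mrps18a was at 46.7 FPKM, Mrps18b at 45.5 FPKM and Mrps18c at 34.7 FPKM (means of 6 libraries). Mrps18c, at 32.7 to 36.2 FPKM, was below Mrps18a and Mrps18b in every library, whereas Mrps18a, at 42.8 to 50.2 FPKM, and Mrps18b, at 44.7 to 46.9 FPKM, overlapped. Mrps30 was at 32.1 FPKM. Counting Mrps18a and Mrps30 with the large subunit left both medians at 34.9 and 36.1 FPKM. Mrps36, at 45.9 FPKM, is known as a component of the 2-oxoglutarate dehydrogenase complex rather than of the ribosome. Leaving it out gave a small subunit median of 34.7 FPKM, below that of the large subunit. The table also lists mrpl9 (25.3 FPKM), mrpl11 (58.7 FPKM) and mrpl24 (14.2 FPKM) in lower case, outside the rule; they were named after their values were seen.

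The members lie on 19 chromosomes, 12 of them on chromosome 1 and 11 on chromosome 10. Mrpl46 and Mrps11, 1 gene from each subunit, are neighbours within 1000 bases in the RefSeq annotation of GRCr8, an assembly other than the files' build mRatBN7.2. Mrpl46 was at 17.1 FPKM and Mrps11 at 28.3 FPKM, with log2 fold changes of -0.012 ± 0.063 and 0.030 ± 0.058 (SE). Mrps12 likewise neighbours Sars2, a mitochondrial aminoacyl-tRNA synthetase, whose level was 4.62 FPKM. Of 73 members matched in that annotation, 16 overlap another protein-coding gene, among them Mrpl36 with Ndufs6 and Mrpl47 with Ndufb5, both of these respiratory chain subunits. Mrps28, the tested member with the fewest reads, overlaps the pseudogenes LOC134485882 and LOC134485883 and the snoRNA gene LOC120101256. The sources used here do not say whether the counting used the strand, so reads of such pairs are uncertain.

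None of the 73 tested members changed with RBM25 overexpression by edgeR's quasi-likelihood test at an adjusted p under 0.05, against 0.404% of all tested genes (0.357% called higher and 0.0466% lower), a background at which 73 genes would hold less than 1 call. DESeq2 also called 0 members (0.435% of all genes). Limma-trend on FPKM called 0 of all 10209 genes it tested, so its 0 members say nothing about these genes. At an unadjusted p under 0.05 there was 1 member, Mrps35, by edgeR, by DESeq2 and by limma-trend, and 2 by limma-trend with no filter on FPKM; edgeR had 11.2% of all tested genes. Differences ran from -6.14% for Mrpl2 to 11.3% for Mrps35, and 71 of the 73 were below 0.1 in size on the log2 scale. The same was true of 68.9% of all tested genes, whose standard errors were larger (median 0.066, against 0.049 for the members). The 95% intervals of the log2 fold change, not adjusted for the number of genes, lay between -0.26 and 0.27 for all 73, the ends being those of Mrps28, the member with the fewest reads, and Mrps35. A p that misses the threshold does not show that levels were equal.

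**Figure D2:**
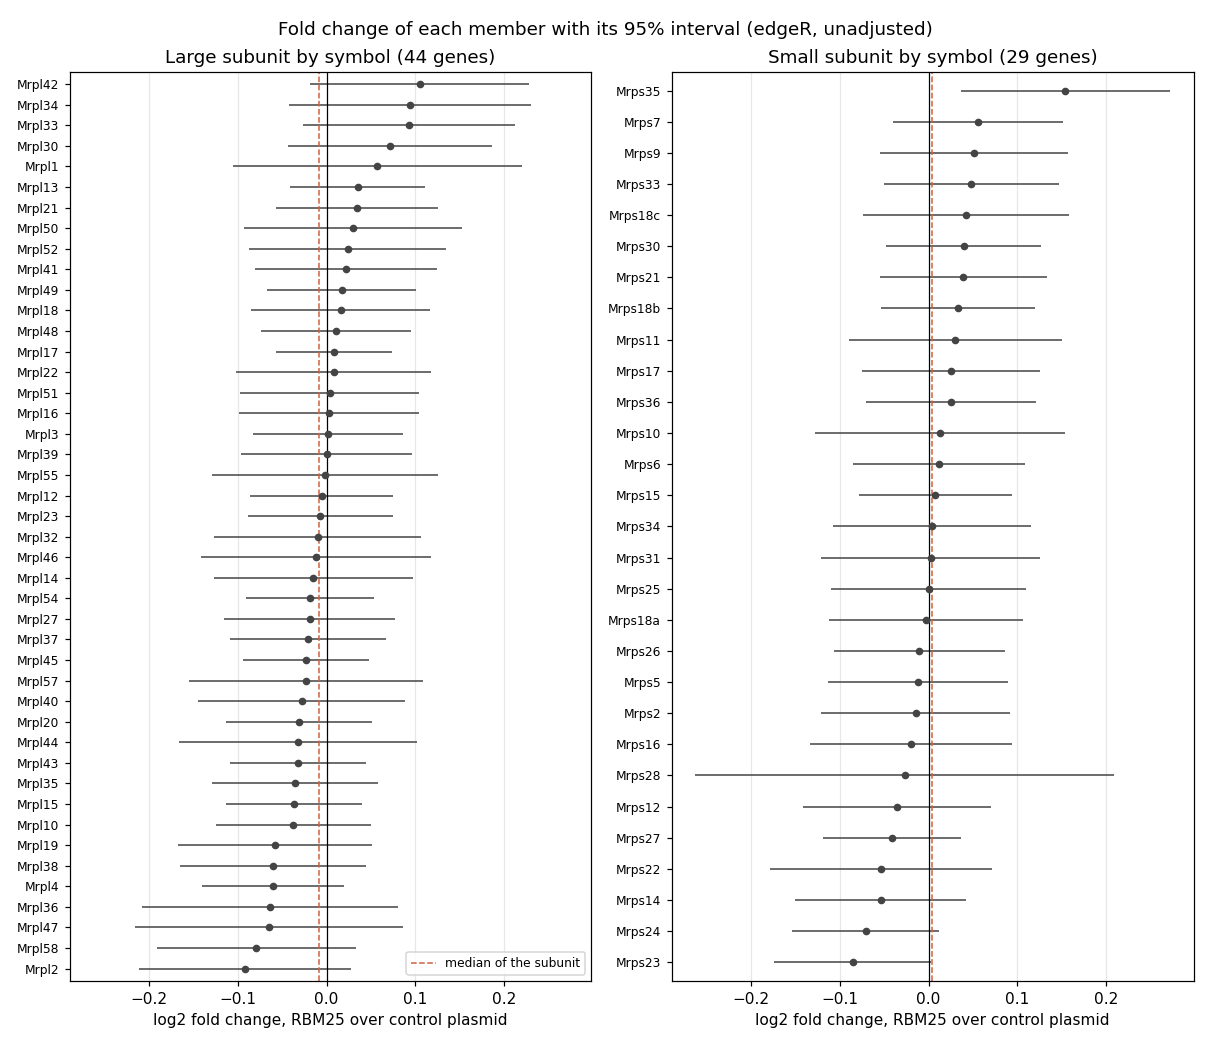
Log2 fold change of each tested member, RBM25 plasmid over control plasmid, with its 95% interval from edgeR (not adjusted for the number of genes); the dashed line is the subunit's median. The interval of Mrps35 (0.037 to 0.27) lies above 0, and those of the other 72 members include 0.

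The median fold changes of both subunits were near 0, and the difference between them was not tested. Of 44 large subunit genes 19 had a positive and 25 a negative log2 fold change, with a median of -0.0083. Of 29 small subunit genes 17 were positive and 12 negative, with a median of 0.0037, and 48.8% of all tested genes were positive, with a median of -0.0021. The small subunit median was negative in the fits without control replicate 1, RBM25 replicate 1 or RBM25 replicate 2, and without RBM25 replicate 3 it was 0.040, when that of the large subunit was 0.0034. With Mrps18a and Mrps30 counted in the large subunit the medians were -0.0061 and 0.0037. By class, the median was -0.0061 for large subunit genes with a bacterial counterpart and -0.015 for mitochondria-specific ones. For those classes of the small subunit by symbol, Mrps18a and Mrps30 included, it was 0.0098 and 0.0015.

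By the median difference of each gene from its own control mean, RBM25 replicate 3 stood below the other libraries. The median log2 difference of the small subunit genes from their control means was -0.019, -0.0014 and -0.0065 in control replicates 1, 2 and 3, and 0.034, 0.044 and -0.045 in RBM25 replicates 1, 2 and 3. RBM25 replicates 1 and 2 were thus above all controls and replicate 3 below all of them. For the large subunit the values were -0.0042, 0.013 and 0.0033 in controls and 0.00052, -0.0021 and -0.034 with RBM25. By the median FPKM of the 44 genes, which depends on the genes in mid-order, the same library was the highest of the 6 (35.8 FPKM). Of the 73 members, 29 had their lowest CPM in RBM25 replicate 3, or 39.7%, where 20.01% of all tested genes did. The respiratory chain list was also lowest there (-0.036). Over all tested genes the median was -0.0017, but the scaling of CPM largely holds that median near 0. RBM25 replicate 3 also differed most from its group over all genes, the chi-square of its counts, divided by the degrees of freedom, being 5.88 and 4.55 against replicates 1 and 2, and 3.07 between those 2. The muscle genes Tnnt2 (137 CPM, against 94.1 to 112 CPM in the others), Myog (25.6 against 14.6 to 22.8 CPM) and Actc1 (1.50 against 0.55 to 0.906 CPM) were also highest in it. Of the other H9C2 markers, Casq2 was highest there (355 against 324 to 353 CPM), but Myod1 was lowest (54.6 against 58.9 to 68.4 CPM). Des, Vim and Acta2 were neither highest nor lowest there, and Myh7 was at 0 CPM. The part of these in the members' levels was not tested.

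**Figure D3:**
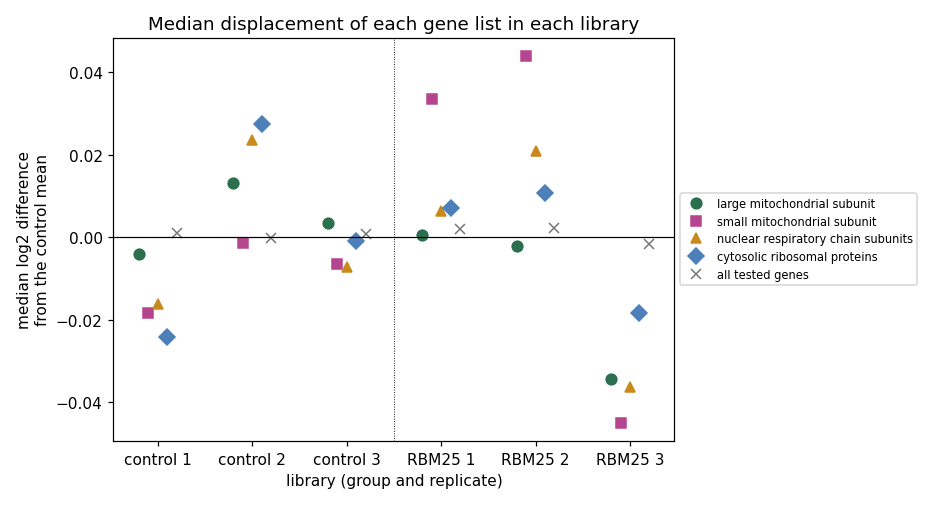
Median log2 difference from the control mean (y) in each library (x) for the genes of each mitochondrial subunit and for 3 sets to compare. Small subunit genes were at 0.034 and 0.044 in RBM25 replicates 1 and 2 and at -0.045 in RBM25 replicate 3. The median over all tested genes stayed within 0.0022 of 0, where the scaling of CPM largely holds it.

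Of the members with a positive fold change, Mrps35, a mitochondria-specific small subunit protein, had the smallest p. It was at 33.8, 32.1 and 32.1 CPM in control replicates 1, 2 and 3 and at 33.4, 39.2 and 36.3 CPM in RBM25 replicates 1, 2 and 3. RBM25 replicates 2 and 3 were above all controls, but replicate 1 was below control replicate 1, so the groups overlapped. The log2 fold change was 0.15 ± 0.057 (SE; adjusted p = 0.283 by edgeR), and 0.096 without RBM25 replicate 2.

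Mrpl42, a mitochondria-specific large subunit protein, was at 49.6, 48.8 and 47.1 CPM in control replicates 1 to 3 and at 53.8, 56.3 and 46.1 CPM in RBM25 replicates 1 to 3. Thus 2 RBM25 libraries were above all controls and replicate 3 was the lowest of the 6. Its log2 fold change was 0.10 ± 0.059 (SE; adjusted p = 0.534 by edgeR). Without RBM25 replicate 2 it was 0.048 (adjusted p = 0.88 by edgeR). Without RBM25 replicate 3 it was 0.18 and was called (adjusted p = 0.0135 by edgeR), the 1 member called in any fit, where 2.69% of all genes were called.

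A further 3 large subunit genes, all with bacterial counterparts, completed the smallest p among positive fold changes. Mrpl33 was at 30.7, 28.3 and 27.4 CPM in control replicates 1 to 3 and 30.3, 32.3 and 29.3 CPM in RBM25 replicates 1 to 3 (log2 fold change 0.093 ± 0.058 SE). Mrpl34 was at 19.1, 22.6 and 21.8 CPM and at 22.2, 23.3 and 22.5 CPM (0.094 ± 0.066 SE). Mrpl30 was at 30.1, 33.3 and 32.3 CPM and at 32.4, 35.7 and 32.5 CPM (0.072 ± 0.056 SE). In each of the 3 genes the groups overlapped, and adjusted p values by edgeR were 0.58 to 0.678. Leaving out 1 library at a time, the fold change was 0.055 to 0.14 for Mrpl33, 0.032 to 0.14 for Mrpl34 and 0.026 to 0.10 for Mrpl30, lowest without RBM25 replicate 2, control replicate 1 and RBM25 replicate 2 respectively.

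**Figure D4:**
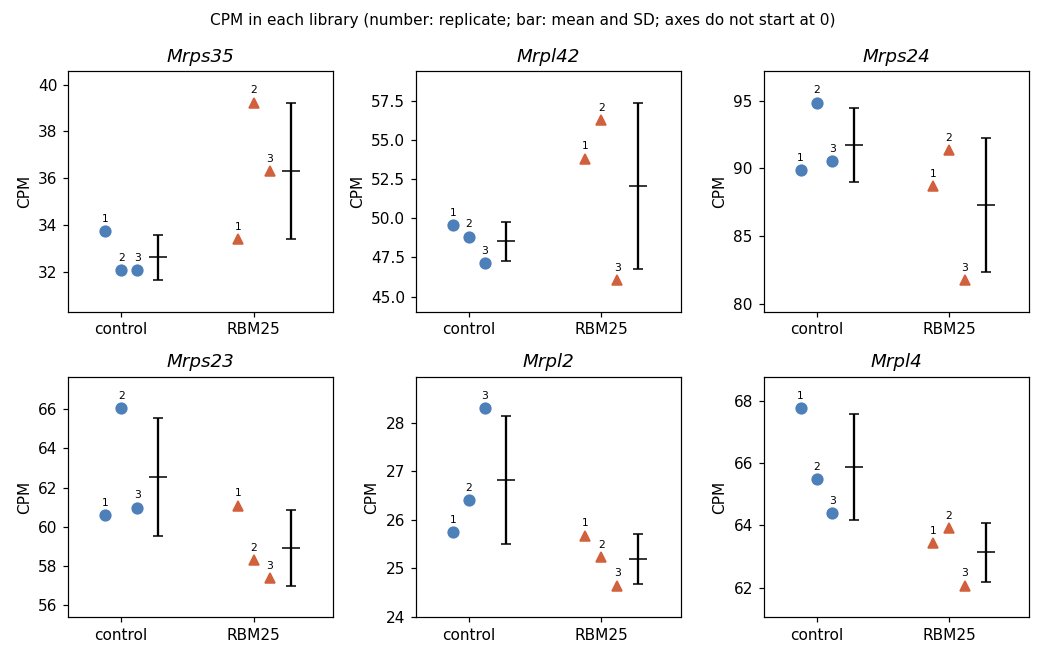
CPM of 6 members in each library, with the replicate number at each point and the mean with its SD beside each group; axes do not start at 0. The groups overlap in Mrps35, Mrpl42, Mrps24 and Mrps23, and lie apart in Mrpl2 and Mrpl4.

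Only 2 of the 73 members, Mrpl2 and Mrpl4, had no overlap between the groups, both lower with RBM25 and 0 higher, while 16.2% of all tested genes had none (7.94% lower and 8.31% higher). Mrpl2, a core protein near the site of peptide bond formation, was at 25.8, 26.4 and 28.3 CPM in control replicates 1 to 3 and at 25.7, 25.2 and 24.6 CPM in RBM25 replicates 1 to 3. The highest RBM25 library and the lowest control were nearly level, and the log2 fold change was -0.091 ± 0.058 (SE; adjusted p = 0.587 by edgeR). Mrpl4, which lines the peptide tunnel, was at 67.8, 65.5 and 64.4 CPM in controls and at 63.4, 63.9 and 62.1 CPM with RBM25, again with a small gap (log2 fold change -0.060 ± 0.039 SE; adjusted p = 0.594 by edgeR).

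In the small subunit the smallest p among negative fold changes were those of Mrps23 and Mrps24. Mrps23, a mitochondria-specific protein, was at 60.6, 66.0 and 61.0 CPM in control replicates 1 to 3 and at 61.1, 58.3 and 57.4 CPM in RBM25 replicates 1 to 3. Control replicate 2 was the highest and RBM25 replicate 1 was just above the other controls (log2 fold change -0.086 ± 0.043 SE; adjusted p = 0.471 by edgeR). Mrps24, the most abundant small subunit mRNA per length, was at 89.9, 94.8 and 90.5 CPM in controls and at 88.7, 91.4 and 81.8 CPM with RBM25, where replicate 3 was lowest (-0.071 ± 0.040 SE; adjusted p = 0.533 by edgeR). Mrpl58 of the large subunit, a peptidyl-tRNA hydrolase that also frees stalled ribosomes, was at 33.8, 36.4 and 32.8 CPM in controls and 32.4, 31.4 and 33.8 CPM with RBM25, and the groups overlapped (-0.079 ± 0.054 SE). Without RBM25 replicate 3 Mrps24 was at -0.027, and without control replicate 2 it was at -0.045, Mrps23 at -0.043 and Mrpl58 at -0.033 on the log2 scale.

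The S18-related genes and Mrps30 stayed within the spread of their libraries. Log2 fold changes were -0.0026 ± 0.053 for Mrps18a, 0.033 ± 0.042 for Mrps18b, 0.042 ± 0.056 for Mrps18c and 0.040 ± 0.042 for Mrps30 (SE; adjusted p = 0.78 to 0.992 by edgeR). Mrps18a varied more among the controls, at 42.2, 44.9 and 38.1 CPM in replicates 1 to 3, than with RBM25, at 41.6, 41.9 and 41.3 CPM. The most abundant members were among those measured most precisely: Mrpl17 had a log2 fold change of 0.0083 ± 0.032 and Mrpl54 of -0.018 ± 0.035 (SE).

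Other genes of mitochondrial translation did not pass the test either. The list held 68 genes, of which 66 matched a row and were tested, and 0 were called by edgeR in either direction (0.404% of all tested genes). Unadjusted p was under 0.05 for 1 gene upward and 1 downward (11.2% of all tested genes). Fold changes were positive for 41 genes, or 62.1%, and negative for 25, with a median of 0.017, where 48.8% of all tested genes were positive. In 8 of the 66, or 12.1%, the groups did not overlap, 5 higher and 3 lower (16.2% of all tested genes). Of 5 ribosomal proteins with other symbols (Dap3, Ptcd3, Chchd1, Aurkaip1 and Gadd45gip1), the median level was 56.1 FPKM, and Ptcd3 had no overlap between the groups (log2 fold change 0.073 ± 0.041 SE; adjusted p = 0.522 by edgeR). Translation factors were lower in level, with a median of 3.69 FPKM over 12 genes, the elongation factor Tufm at 77.0 FPKM being the highest. Medians were 7.85 FPKM for 29 assembly, RNA modification and membrane factors and 2.40 FPKM for 17 aminoacyl-tRNA synthetases. In CPM the medians were 62.3 for the 5 ribosomal proteins, 21.4 for the translation factors, 16.9 for the assembly group and 12.7 for the synthetases. Their median implied lengths were 1312, 4186, 2391 and 3681 bases in that order.

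Among these genes the smallest p for positive fold changes were those of 2 factors that end or rescue translation. The release factor gene Mtrf1 was at 9.46, 7.98 and 8.44 CPM in control replicates 1 to 3 and 9.43, 10.04 and 10.3 CPM in RBM25 replicates 1 to 3 (log2 fold change 0.20 ± 0.092 SE; adjusted p = 0.397 by edgeR). The rescue factor gene Mtrfr, listed as RGD1563482, was at 3.49, 2.96 and 3.39 CPM and at 4.06, 3.73 and 4.19 CPM, with no overlap (0.28 ± 0.14 SE; adjusted p = 0.45 by edgeR). The groups overlapped for Mtrf1 through control replicate 1.

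For negative fold changes they were Iars2, the isoleucyl-tRNA synthetase of mitochondria, and Trub2, a pseudouridine synthase of mitochondrial RNA. Iars2 was at 78.4, 74.7 and 75.04 CPM in control replicates 1 to 3 and at 70.1, 73.9 and 72.0 CPM in RBM25 replicates 1 to 3 (log2 fold change -0.078 ± 0.038 SE; adjusted p = 0.447 by edgeR). Trub2 was at 23.2, 21.7 and 21.6 CPM and at 20.2, 20.4 and 20.2 CPM (-0.12 ± 0.062 SE; adjusted p = 0.467 by edgeR). In both genes each RBM25 library was below every control, by less than the range among the controls.

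These ribosomes translate the mRNAs of the 13 protein-coding genes of the mitochondrial genome. Those genes took 4.92, 4.87 and 5.001% of reads in control replicates 1, 2 and 3, and 5.14, 5.10 and 4.93% in RBM25 replicates 1, 2 and 3. The large subunit genes took 0.215, 0.217 and 0.216% of reads in the controls and 0.217, 0.217 and 0.214% with RBM25. For the small subunit genes the shares were 0.131, 0.133 and 0.132% in the controls and 0.134, 0.136 and 0.129% with RBM25. By these summed shares RBM25 replicate 3 was the lowest library of its group in all 3 sets, and the groups overlapped.

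Gene by gene, 1 of the 13 protein-coding mitochondrial genes was called, higher, against 0.404% of all tested genes. Unadjusted p was under 0.05 for 5 upward and 1 downward (11.2% of all tested genes in either direction). The groups did not overlap in 6 of the 13, 5 higher and 1 lower, where 16.2% of all tested genes had no overlap, and the median log2 fold change was 0.073. Genes of 1 genome are not independent replicates, so these counts are not 13 separate observations. The called gene was ND2, a subunit of complex I, at 3062, 3105 and 3258 CPM in control replicates 1 to 3 and 3548, 3478 and 3305 CPM in RBM25 replicates 1 to 3. Each RBM25 library was above every control (log2 fold change 0.13 ± 0.029 SE; adjusted p = 0.0311 by edgeR). Leaving out any 1 library other than RBM25 replicate 3 lost the call, with adjusted p values of 0.0512 to 0.344 by edgeR and fold changes of 0.11 to 0.16. COX2 and COX3 of complex IV and ND3 and ND5 of complex I also had no overlap, higher, and COX1 of complex IV had none, lower, by -0.047 on the log2 scale; none of these passed the test, and they were named after their values were seen.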

How the data were processed

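Whole-number read counts per gene, not normalized, were deposited by the authors for 20742 genes. FPKM values rounded to 2 decimals were also deposited by the authors. Per the submitters' processing notes, HISAT2, DESeq2 and the build mRatBN7.2 were used; the sources used here do not give the counting program, annotation or gene lengths. Per the labels' protocols, libraries were strand-marked and read in pairs. Depth was 25543849 to 33130256 reads per library, and the common biological coefficient of variation was 3.91%. The count model was that of edgeR 4.0.16 (R 4.3.3): filterByExpr with a minimum count of 10 (12882 genes kept), TMM scaling, robust quasi-likelihood fitting on group alone, and Benjamini-Hochberg adjustment over all tested genes. SE is the size of the log2 fold change divided by the square root of F. CPM are scaled by TMM factors. The script was tested on simulated data. Alternatives used DESeq2 1.42.0 and limma 3.58.1 on log2(FPKM + 0.1) or log2(FPKM + 1).

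The members and lists were chosen with earlier results of these data known, so no set test was run. Named are the 5 members with the smallest p in each direction, the 3 highest and 3 lowest by FPKM in each subunit, the Mrps18 genes, Mrps30, 4 pathway genes by p, and any called. Other genes are examples of a role or neighbour, chosen after their values were seen. Mrps21l and Mrps36 were put in no structural class. Promoter and protein sequences are not analysed here.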

Additional observations from a re-analysis of the deposited data

How the results depend on the processing

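Of 13 other fits, 12 called 0 members, but 2 of these, by limma-trend, called no gene at all and say nothing of stability. Where few genes were called over the whole table, 0 members also says little. Such were the fits without control replicate 2 (5 of 13147 genes) and by limma-trend with no filter (5 of 20395). Without RBM25 replicate 3 the count of members was 1 (Mrpl42), so that leaving out 1 library gave 0 to 1. The number of genes called over the whole table was less stable. Against 52 of 12882, it was 205 of 20742 with no filter on low counts and 5 to 352 when 1 library was left out. By limma-trend it was 0 on log2(FPKM + 0.1), 0 on log2(FPKM + 1) and 5 with no filter on FPKM. The cause was not tested. With the replicate number as a block, 436 of 12882 genes and 0 of 73 members were called. Deviations of same-numbered libraries from their group means correlated at 0.16, -0.11 and 0.050, so the numbers were not taken as pairs, and libraries did not each correlate best with their own number. The median log2 fold change of the small subunit genes was -0.0055 to 0.040 when 1 library was left out, and that of the large subunit genes -0.019 to 0.0034. The small subunit's median level was 37.6 FPKM over members that passed the filter and 34.7 FPKM without Mrps36, an alternative chosen after seeing the data, as was the addition of lower-case symbols. Among named genes, the sign of Mrps18a, which was not called, turned with no filter on low counts (log2 fold change 1.6e-04) and when 1 library was left out (-0.064 to 0.056). Standard errors of the members ran from 0.032 (Mrpl17) to 0.11 (Mrps28, the fewest reads), which sets the smallest difference that could be told from replicate spread.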
